A study of Mus musculus with 4 samples.

Results

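Cyr61, Ctgf and 8 other genes of the YAP-TEAD program were followed by RNA-Seq in IMCD cells, a culture from the inner medullary collecting duct of the mouse, that carry or lack the TGF-β type II receptor (TβRII). The genes are a fixed list of 10 symbols, Cyr61, Ctgf, Ankrd1, Amotl1, Amotl2, Lats2, Axl, Yap1, Wwtr1 and Tead1, and each was found among the 37981 gene loci of the deposited tables. Of the 10, 9 had an entry of their own, and Lats2 shared its entry with the neighboring gene Xpo4, so its value covers both. The list was chosen by membership in this program with the FPKM of the same 4 libraries already known, so the levels and the ratios between genotypes count among the values that chose it. They are given as a description, with no test.

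The collecting duct is the final tubule of the kidney, where water and salt reabsorption are adjusted. The cells came from C57B/l mice whose Tgfbr2 alleles, which encode TβRII, are floxed, and had been immortalized with psv40, which all groups share. The 4 groups, with 1 library each, were TβRII-/- cells (treated with adeno-Cre) and TβRIIfl/fl cells (untreated), each serum deplete for 4 days (serum-starved) and each serum replete. Because only TβRII-/- cells received the virus and Cre, loss of TβRII cannot be told apart from those exposures. With 1 library per condition there was no replicate spread for any value, and no p-value was computed. The same populations were grown in both media, so agreement between media is not a second deletion.

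YAP (Yap1) and TAZ (Wwtr1) are transcriptional coactivators that reach DNA by binding the TEAD factors. In the Hippo pathway, the kinases Lats1 and Lats2 phosphorylate YAP and TAZ, which holds them in the cytoplasm, and angiomotins bind them there as well. Cyr61, Ctgf and Ankrd1 are the genes most often read as a measure of YAP and TAZ activity, and Ctgf is also induced by TGF-β and is known as a profibrotic factor of the injured kidney tubule.

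The promoters of Cyr61 and Ankrd1 are shown because these were the 2 genes 2-fold or more higher in TβRII-/- cells in both media. Each line gives the 250 bases before the annotated start, 5′ to 3′ on the strand of the gene, with the TEAD recognition letters GGAATG in capitals, which read as CATTCC when they lie on the other strand. The sequences are from RefSeq, build GRCm38.p6, the assembly also called mm10. Cyr61 lies on the minus strand at chr3:145649986-145650235 and Ankrd1 on the minus strand at chr19:36119845-36120094.
Cyr61: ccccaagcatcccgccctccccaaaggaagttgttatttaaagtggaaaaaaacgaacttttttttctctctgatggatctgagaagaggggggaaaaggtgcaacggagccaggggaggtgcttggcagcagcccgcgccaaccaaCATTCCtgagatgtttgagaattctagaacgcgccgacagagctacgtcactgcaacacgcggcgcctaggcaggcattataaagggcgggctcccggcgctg
Ankrd1: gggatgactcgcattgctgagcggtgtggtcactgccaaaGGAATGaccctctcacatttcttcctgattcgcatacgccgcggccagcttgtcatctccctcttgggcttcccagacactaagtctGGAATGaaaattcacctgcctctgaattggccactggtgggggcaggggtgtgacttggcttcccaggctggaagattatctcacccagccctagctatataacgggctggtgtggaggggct

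The same letters were found before the starts of Amotl2, Axl, Wwtr1 and Yap1, and they are shown with their flanks so that the sites can be compared. Amotl2 is on the plus strand at chr9:102717730-102717753, and the others are on the minus strand, Axl at chr7:25788952-25788975, Wwtr1 at chr3:57576032-57576055 and Yap1 at chr9:8004723-8004746.
Amotl2: aaactctcaCATTCCtggcatagc
Axl: aattctacaGGAATGtttaccaga
Wwtr1: aaactcaaaGGAATGcagataggc
Yap1: gagtctgcaGGAATGtagcgacgc

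The table held windows for 8 of the 10 genes, Cyr61 under its newer symbol Ccn1, and none was used for Ctgf and Tead1. Of these 8 genes, which had 10 windows, 6 carried the TEAD letters on either strand in any window, and Amotl1 and Lats2 did not. Among all 32851 windows of the same length, from 27025 gene symbols, 12.6% carried them. That share is per window and the count is per gene. The list was chosen by membership in the YAP-TEAD program, so nothing is read from this count. The match nearest to a start was that of Amotl2, whose first base is at −65 from it, followed by Cyr61 at −103 and Ankrd1 at −123 and −210. The letters of an AP-1 site (TGANTCA, either strand) and the CArG box bound by SRF were in none of the 8, against 6.75% and 1.47% of all windows. The starts are those of RefSeq. GENCODE, from which the gene coordinates below are taken, has longer transcripts of Ankrd1, Amotl1, Amotl2 and Lats2, so their windows lie inside the gene as given there. These are matches of letters, and the libraries hold no measure of binding.

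**Figure D1:**
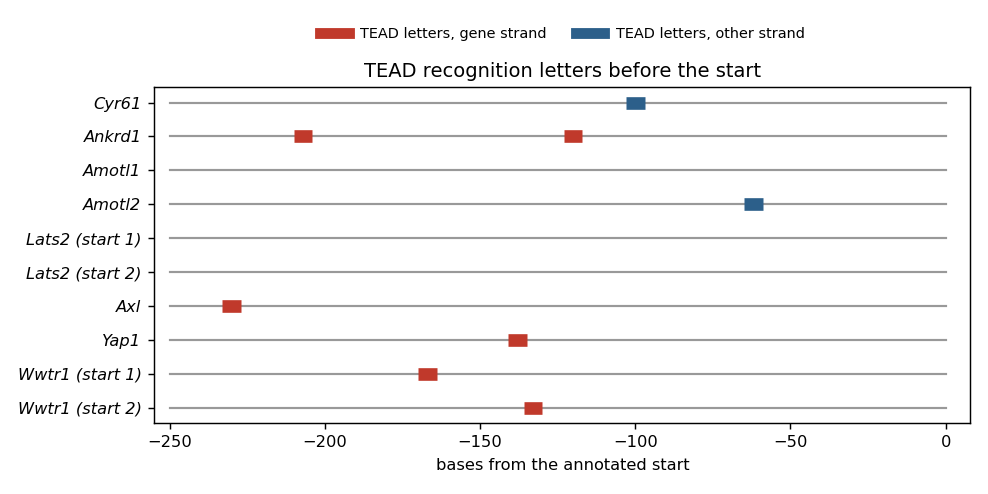
Positions of the TEAD recognition letters in the 250 bases before the annotated start of 8 genes, with bases from the start on the x axis and 1 line per start. Ankrd1 has 2 matches on the strand of the gene, Cyr61 and Amotl2 have 1 each on the other strand, and the 2 lines of Wwtr1 hold the same match seen from 2 starts.

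Levels were read as FPKM, the fragments counted per kilobase of transcript after scaling to the size of the library, which can be compared between genes because they are per length. The authors' Cuffdiff run scaled each medium separately, so genotypes were compared within a medium. The difference between genotypes was taken on the log2 scale, as FPKM + 1 in TβRII-/- cells divided by FPKM + 1 in TβRIIfl/fl cells, so changes of weakly expressed genes come out too small. Calls of higher or lower were made from 2-fold upwards. A locus entered the comparison of a medium when 1 of its libraries reached 1 FPKM, as all 10 genes did in both media. Pairs of log2 ratios are given for serum-starved and then serum-replete medium. Tgfbr2 itself was 73.7 FPKM in TβRII-/- against 143 FPKM in TβRIIfl/fl cells after serum starvation, and 57.0 FPKM in TβRII-/- against 163 FPKM in TβRIIfl/fl cells with serum. Since the floxed exon was not measured apart from the rest of the gene, its loss cannot be read from these levels. The files hold no counts. The sample labels state the same depth, 30 M reads, for each library. Low values of long genes lay near steps that would correspond to about 31948882 to 40816327 reads per library if fragments were 200 bp. The estimate was highest for TβRII-/- serum-replete. Only 58.3% to 65.9% of these low values were within 10% of a whole step. Reads were therefore not recovered, and no difference in depth between libraries is read from these estimates.

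The cells were checked against markers of their labelled type. Of 18 markers of collecting duct and tubular epithelium, 7 stayed under 1 FPKM in every library, among them the vasopressin receptor Avpr2 and the water channels Aqp3 and Aqp4, and Aqp2, the defining water channel of principal cells, was listed at 0 in all 4. The 18 markers summed to 715 FPKM in TβRII-/- against 856 FPKM in TβRIIfl/fl cells without serum and to 934 FPKM in TβRII-/- against 1007 FPKM in TβRIIfl/fl cells with serum. Of the 11 that passed the filter described above, 2 were at least 2-fold higher and 4 lower in TβRII-/- cells without serum, and 2 were higher and 5 lower with serum. Over all loci, 14.7% without and 18.1% with serum were called in either direction. The most abundant markers went both ways. Krt7, a keratin of ducts, was 362 FPKM in TβRII-/- against 53.9 FPKM in TβRIIfl/fl cells without serum and 525 FPKM in TβRII-/- against 91.5 FPKM in TβRIIfl/fl cells with serum. The simple-epithelium keratin Krt8 was 0.133 FPKM in TβRII-/- against 142 FPKM in TβRIIfl/fl cells without serum and 0.229 FPKM in TβRII-/- against 251 FPKM in TβRIIfl/fl cells with serum. Cdh16, a cadherin of kidney tubules, was 143 FPKM in TβRII-/- against 352 FPKM in TβRIIfl/fl cells after serum starvation, and 147 FPKM in TβRII-/- against 298 FPKM in TβRIIfl/fl cells with serum. Of 8 fibroblast markers, 7 were under 1 FPKM in all libraries, and the list summed to 0.643 FPKM in TβRII-/- against 0.672 FPKM in TβRIIfl/fl cells without serum and to 0.735 FPKM in TβRII-/- against 3.06 FPKM in TβRIIfl/fl cells with serum, with Lum at 0 in 3 of them. All 5 endothelial markers were under 1 FPKM, with Cdh5 and Emcn at 0 throughout, and their sum was at most 0.102 FPKM. The 5 leukocyte markers, with Cd3e at 0 throughout, summed to 4.28 FPKM in TβRII-/- against 5.04 FPKM in TβRIIfl/fl cells without serum and to 12.0 FPKM in TβRII-/- against 9.47 FPKM in TβRIIfl/fl cells with serum. Most of each sum was Cd68. It was 3.78 FPKM in TβRII-/- against 3.18 FPKM in TβRIIfl/fl cells without serum and 11.8 FPKM in TβRII-/- against 8.79 FPKM in TβRIIfl/fl cells with serum. The 5 proximal tubule markers, with Slc34a1 at 0 throughout, summed to 21.6 FPKM in TβRII-/- against 53.8 FPKM in TβRIIfl/fl cells without serum and to 7.65 FPKM in TβRII-/- against 23.0 FPKM in TβRIIfl/fl cells with serum. Within that list Aqp1 was lower in TβRII-/- cells, at 0.499 FPKM in TβRII-/- against 48.5 FPKM in TβRIIfl/fl cells without serum and 0.904 FPKM in TβRII-/- against 20.3 FPKM in TβRIIfl/fl cells with serum, and Lrp2 was higher, at 20.4 FPKM in TβRII-/- against 4.19 FPKM in TβRIIfl/fl cells without serum and 5.61 FPKM in TβRII-/- against 2.18 FPKM in TβRIIfl/fl cells with serum. The part of these shifts in the results below was not tested.

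Cyr61 and Ankrd1 were higher in TβRII-/- cells by a similar ratio in both media, whereas Ctgf, Amotl1 and Tead1 were at least 2-fold higher after serum starvation and less than 2-fold higher with serum. In all, 5 of the 10 genes were at least 2-fold higher in serum-starved TβRII-/- cells, where 8.02% of 12687 loci were higher and 6.64% were lower (14.7% in either direction). In serum-replete medium, 2 of the 10 were at least 2-fold higher, where 7.0% of 12635 loci were higher and 11.1% were lower (18.1% in either direction). None of the 10 was at least 2-fold lower in either medium. The median log2 ratio of the 10 genes was 1.01 without and 0.71 with serum, against 0.028 and −0.029 over all loci compared. Because the list was chosen with these results known, nothing is read from its counts.

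**Figure D2:**
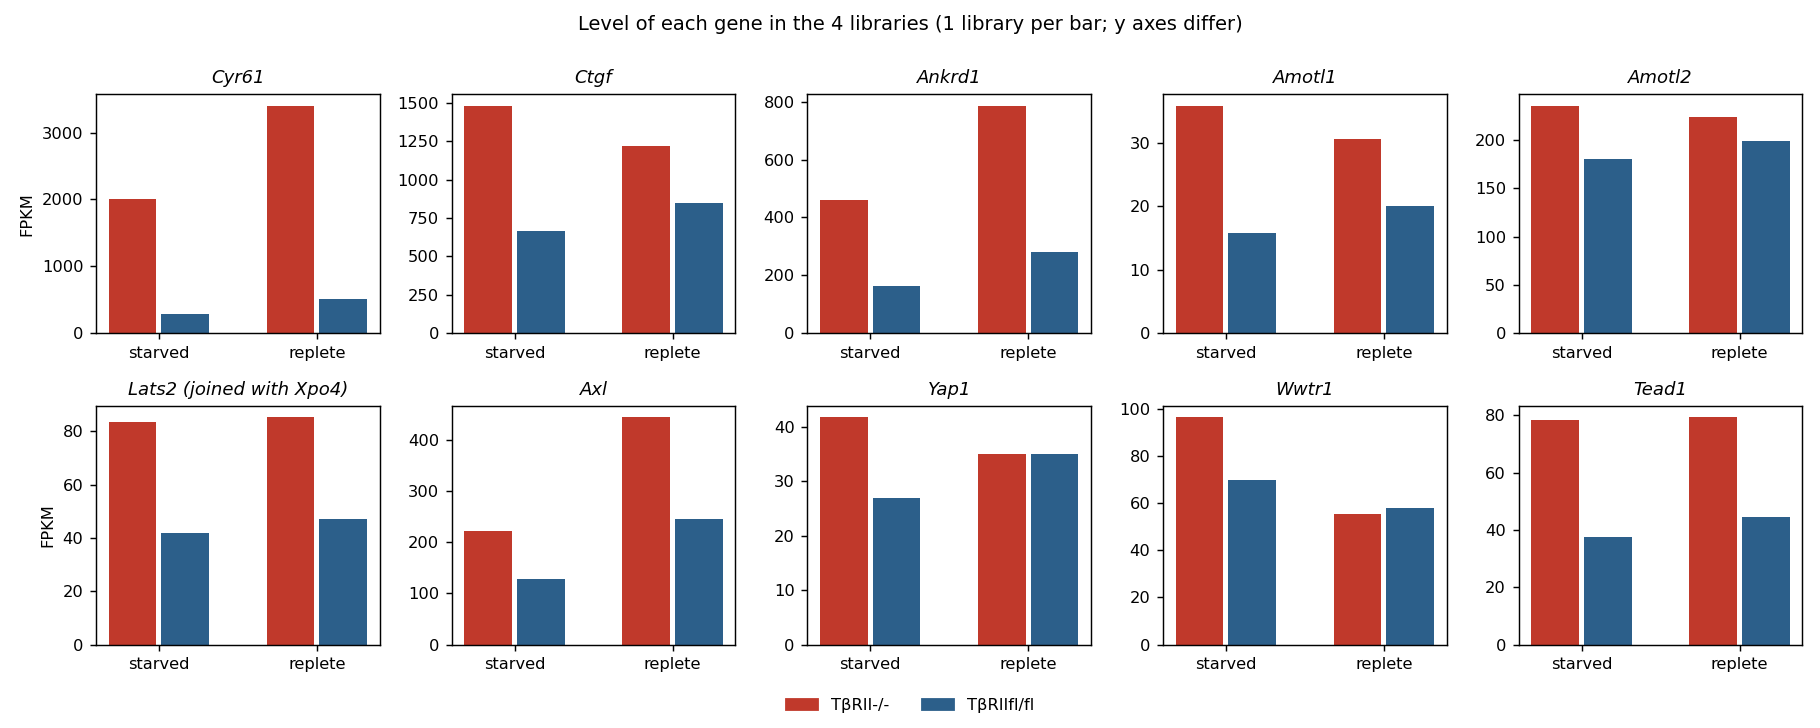
FPKM (y axis, linear and different for each gene) of the 10 genes in serum-starved and serum-replete cells, with TβRII-/- in red and TβRIIfl/fl in blue and 1 library per bar. Cyr61 reached 2004 and 3402 FPKM in TβRII-/- cells against 287 and 506 FPKM in TβRIIfl/fl cells, and Yap1 with serum was 35.1 FPKM in TβRII-/- and 35.0 FPKM in TβRIIfl/fl cells.

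Cyr61 and Ctgf encode secreted matricellular proteins of the CCN family that bind integrins. Cyr61 (chromosome 3, 145646976 to 145649981 in mm10) was 2004 FPKM in TβRII-/- against 287 FPKM in TβRIIfl/fl cells after serum starvation, a log2 ratio of 2.80. With serum it was 3402 FPKM in TβRII-/- against 506 FPKM in TβRIIfl/fl cells, a log2 ratio of 2.75. Both TβRII-/- libraries were thus above both TβRIIfl/fl libraries, and the FPKM ratio between genotypes was 6.97 without and 6.73 with serum. Cyr61 was among the most abundant transcripts of TβRII-/- cells, where it ranked at place 33 of all loci after serum starvation and 22 with serum, against 300 and 164 in TβRIIfl/fl cells. Its log2 ratio ranked at place 158 of 12687 loci without and 138 of 12635 loci with serum.

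Ctgf (chromosome 10, 24595442 to 24598683) was 1482 FPKM in TβRII-/- against 663 FPKM in TβRIIfl/fl cells after serum starvation, a log2 ratio of 1.16. With serum it was 1220.2 FPKM in TβRII-/- against 846 FPKM in TβRIIfl/fl cells, a log2 ratio of 0.53, which is under 2-fold. Ctgf was abundant in every library, at place 42 and 58 of all loci in TβRII-/- cells and at place 110 and 81 in TβRIIfl/fl cells, without and with serum. An antisense noncoding gene, Gm15270, overlaps Ctgf and had its own entry at 5.79 FPKM in TβRII-/- against 2.98 FPKM in TβRIIfl/fl cells without serum, and 4.57 FPKM in TβRII-/- against 3.46 FPKM in TβRIIfl/fl cells with serum, so it was low beside Ctgf. The sources used here do not say whether counting used strand.

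The order of both genes was opposite in the 2 genotypes. The ratio of Cyr61 to Ctgf FPKM was 1.35 in TβRII-/- and 0.434 in TβRIIfl/fl cells after serum starvation, and 2.79 in TβRII-/- and 0.598 in TβRIIfl/fl cells with serum. Cyr61 was therefore the more abundant of the pair in both TβRII-/- libraries and the less abundant in both TβRIIfl/fl libraries. This ratio is formed within a library and does not depend on the scaling between libraries.

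Ankrd1 (chromosome 19, 36111961 to 36120099) encodes an ankyrin repeat protein of the nucleus and the sarcomere that is known from stressed heart muscle. It was 460.4 FPKM in TβRII-/- against 164 FPKM in TβRIIfl/fl cells after serum starvation, a log2 ratio of 1.49. With serum it was 786 FPKM in TβRII-/- against 280.3 FPKM in TβRIIfl/fl cells, a log2 ratio of 1.48. The ratio between genotypes differed by 0.0014 on the log2 scale between the media, although the level was higher with serum in both genotypes. Cyr61 and Ankrd1 were the only members of the 10 above the 95th percentile of all loci in both media (1.32 and 1.24). Of 12162 loci compared in both media, 2.97% were at least 2-fold higher and 4.56% at least 2-fold lower in TβRII-/- cells in both media, and nothing is read from these shares.

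**Figure D3:**
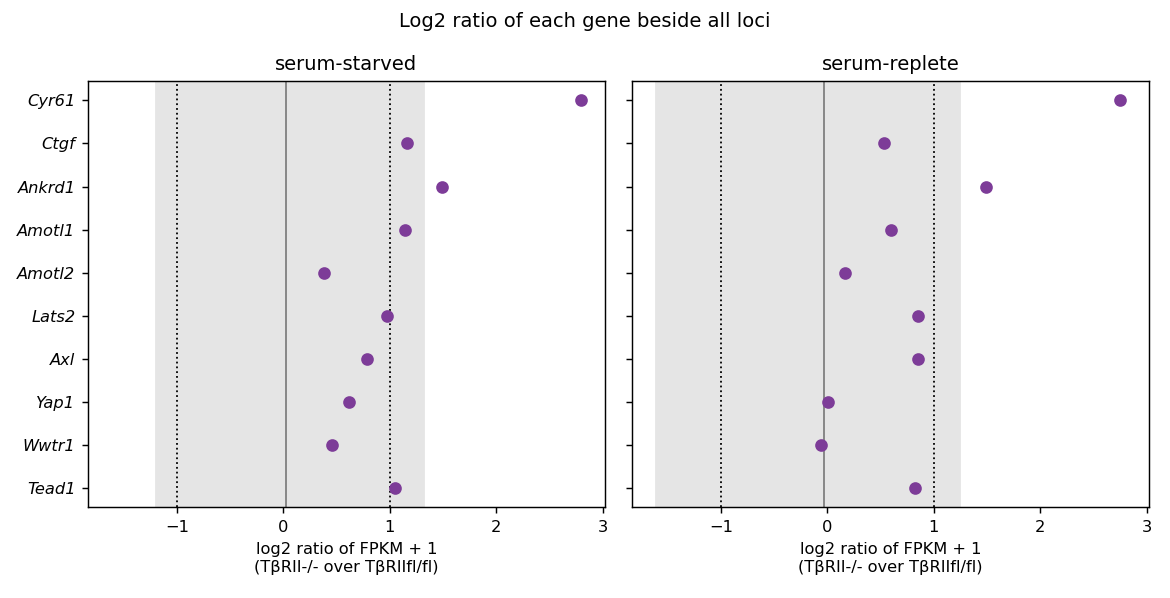
Log2 ratio of FPKM + 1 in TβRII-/- over TβRIIfl/fl cells (x axis) for the 10 genes in each medium, with the central 90% of all loci compared in gray, their median as a gray line and 2-fold as dotted lines. Cyr61 at 2.80 and 2.75 and Ankrd1 at 1.49 and 1.48 lie right of the gray band in both media, and Yap1 and Wwtr1 lie near 0 with serum.

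Amotl1 and Amotl2 belong to the angiomotins, scaffold proteins of cell junctions that bind YAP, and Amotl2 is itself a target gene of YAP. Amotl1 (chromosome 9, 14541966 to 14645056) was 35.8 FPKM in TβRII-/- against 15.7 FPKM in TβRIIfl/fl cells without serum, a log2 ratio of 1.14. Its serum-replete level was 30.7 FPKM in TβRII-/- against 20.0 FPKM in TβRIIfl/fl cells, a log2 ratio of 0.59. Amotl2 (chromosome 9, 102716672 to 102733418) was the most abundant angiomotin in all 4 libraries and had the smallest serum-starved ratio of the 10. It was 236 FPKM in TβRII-/- against 181 FPKM in TβRIIfl/fl cells without serum (0.38) and 224 FPKM in TβRII-/- against 199 FPKM in TβRIIfl/fl cells with serum (0.17, both log2 ratios). Amot, the remaining angiomotin, was 58.0 FPKM in TβRII-/- against 52.8 FPKM in TβRIIfl/fl cells without serum and 26.8 FPKM in TβRII-/- against 39.1 FPKM in TβRIIfl/fl cells with serum.

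Lats2, the kinase that phosphorylates YAP and TAZ and is itself induced by them, could be read only together with Xpo4, a nuclear transport receptor. The joined entry (chromosome 14, 57581002 to 57758388) was 83.3 FPKM in TβRII-/- against 41.9 FPKM in TβRIIfl/fl cells without serum, a log2 ratio of 0.97. With serum it was 85.4 FPKM in TβRII-/- against 47.0 FPKM in TβRIIfl/fl cells, a log2 ratio of 0.85. Both values were just under 2-fold and passed it when libraries were rescaled to equal sums without their highest locus (1.11 and 1.02). Its paralog Lats1, named after its values were seen, was 20.2 FPKM in TβRII-/- against 13.3 FPKM in TβRIIfl/fl cells without serum and 16.7 FPKM in TβRII-/- against 13.8 FPKM in TβRIIfl/fl cells with serum.

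Axl (chromosome 7, 25757273 to 25788705) encodes a receptor tyrosine kinase of the TAM family that is activated by the secreted protein Gas6, and its relatives Tyro3 and Mertk also respond to the secreted protein Pros1. It was 222 FPKM in TβRII-/- against 128 FPKM in TβRIIfl/fl cells without serum, a log2 ratio of 0.79. The serum-replete level was 445 FPKM in TβRII-/- against 246 FPKM in TβRIIfl/fl cells, a log2 ratio of 0.85, which became 1.02 after rescaling to equal sums. Axl was the only one of the 10 with a larger ratio in serum-replete than in serum-starved medium, with a difference of −0.065 on the log2 scale.

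Of the other genes of this family, Tyro3, Gas6 and Pros1 passed the filter and were called in both media. Of all loci compared in both media, 2.97% were called higher and 4.56% lower in each. Tyro3, a second TAM receptor, was 5.46 FPKM in TβRII-/- against 1.84 FPKM in TβRIIfl/fl cells without serum and 7.16 FPKM in TβRII-/- against 2.91 FPKM in TβRIIfl/fl cells with serum, with log2 ratios of 1.18 and 1.06. Gas6 was 6.21 FPKM in TβRII-/- against 26.3 FPKM in TβRIIfl/fl cells without serum and 0.537 FPKM in TβRII-/- against 10.9 FPKM in TβRIIfl/fl cells with serum, with log2 ratios of −1.92 and −2.95. Pros1 was 19.3 FPKM in TβRII-/- against 95.4 FPKM in TβRIIfl/fl cells without serum and 16.2 FPKM in TβRII-/- against 137 FPKM in TβRIIfl/fl cells with serum, with log2 ratios of −2.25 and −3.00. Tyro3 was thus called higher and both ligand genes lower in TβRII-/- cells in each medium, whereas Axl stayed under 2-fold. Mertk, named after its values were seen, was under 1 FPKM in every library, at 0.271 FPKM in TβRII-/- against 0.488 FPKM in TβRIIfl/fl cells without serum and 0.0874 FPKM in TβRII-/- against 0.205 FPKM in TβRIIfl/fl cells with serum.

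The coactivator genes Yap1 and Wwtr1 stayed under 2-fold in both media. Yap1 (chromosome 9, 7931999 to 8004596) was 41.8 FPKM in TβRII-/- against 26.9 FPKM in TβRIIfl/fl cells without serum, a log2 ratio of 0.62. In the presence of serum it was 35.1 FPKM in TβRII-/- against 35.0 FPKM in TβRIIfl/fl cells, a log2 ratio of 0.0011. Gm20416, an antisense noncoding gene within Yap1, had an entry of its own at 11.5 FPKM in TβRII-/- against 9.01 FPKM in TβRIIfl/fl cells without serum and 9.28 FPKM in TβRII-/- against 11.8 FPKM in TβRIIfl/fl cells with serum, so reads of both may not be fully separated if counting ignored strand. Wwtr1 (chromosome 3, 57455649 to 57575910) was 96.6 FPKM in TβRII-/- against 70.0 FPKM in TβRIIfl/fl cells without serum, a log2 ratio of 0.46. With serum it was 55.3 FPKM in TβRII-/- against 57.8 FPKM in TβRIIfl/fl cells, a log2 ratio of −0.062. This ratio turned to 0.10 when libraries were rescaled to equal sums, where the median of all loci was 0.12. Wwtr1 was the more abundant coactivator gene in every library, at 1.58 to 2.60 times the FPKM of Yap1.

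Tead1 (chromosome 7, 112679318 to 112906807) encodes a DNA-binding partner of YAP and TAZ. It was 78.3 FPKM in TβRII-/- against 37.4 FPKM in TβRIIfl/fl cells without serum, a log2 ratio of 1.05, and 79.5 FPKM in TβRII-/- against 44.4 FPKM in TβRIIfl/fl cells with serum, a log2 ratio of 0.83. Tead4 was 18.7 FPKM in TβRII-/- against 5.28 FPKM in TβRIIfl/fl cells without serum and 21.8 FPKM in TβRII-/- against 4.69 FPKM in TβRIIfl/fl cells with serum, with log2 ratios of 1.65 and 2.00. Tead2 was 65.6 FPKM in TβRII-/- against 56.7 FPKM in TβRIIfl/fl cells without serum and 58.6 FPKM in TβRII-/- against 103 FPKM in TβRIIfl/fl cells with serum, with log2 ratios of 0.21 and −0.80. Tead1 was the most abundant TEAD gene in both TβRII-/- libraries and Tead2 in both TβRIIfl/fl libraries. Tead1 held 41.7% of the summed TEAD FPKM in TβRII-/- and 31.1% in TβRIIfl/fl cells without serum, and 42.8% in TβRII-/- and 23.4% in TβRIIfl/fl cells with serum. Tead2 held 35.0% in TβRII-/- and 47.1% in TβRIIfl/fl cells without serum, and 31.5% in TβRII-/- and 54.4% in TβRIIfl/fl cells with serum. The summed level was 188 FPKM in TβRII-/- against 120.4 FPKM in TβRIIfl/fl cells without serum and 186 FPKM in TβRII-/- against 189 FPKM in TβRIIfl/fl cells with serum, so in serum-replete medium the makeup differed while the sum was nearly equal.

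**Figure D4:**
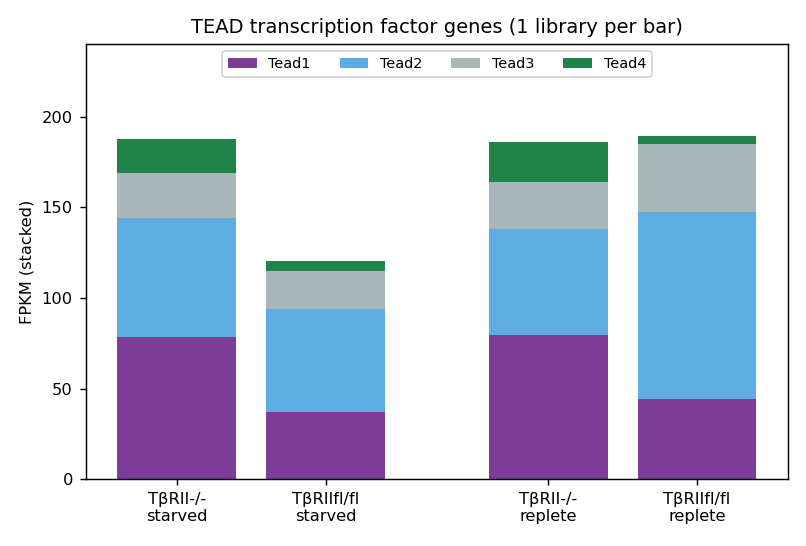
Stacked FPKM (y axis) of Tead1 to Tead4 in the 4 libraries, 1 library per bar, with TβRII-/- left of TβRIIfl/fl in each medium. The sums were 188 FPKM in TβRII-/- and 120.4 FPKM in TβRIIfl/fl cells without serum and 186 FPKM in TβRII-/- and 189 FPKM in TβRIIfl/fl cells with serum, and Tead1 was the largest share in both TβRII-/- bars.

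The Vgll proteins compete with YAP and TAZ for TEAD factors. Vgll3 was 35.2 FPKM in TβRII-/- against 3.09 FPKM in TβRIIfl/fl cells without serum and 40.4 FPKM in TβRII-/- against 13.1 FPKM in TβRIIfl/fl cells with serum, with log2 ratios of 3.15 and 1.56. Vgll4, a repressor of TEAD targets, was 71.2 FPKM in TβRII-/- against 33.3 FPKM in TβRIIfl/fl cells without serum (1.07) and 38.2 FPKM in TβRII-/- against 28.8 FPKM in TβRIIfl/fl cells with serum (0.40, both log2 ratios). Vgll1 and Vgll2 were listed at 0 in all 4 libraries. Of the 5 genes of this group other than the 10 that passed the filter, 3 reached 2-fold in the direction of TβRII-/- cells without serum and 2 with serum, and none was lower. Over all loci, 8.02% were higher without and 7.0% with serum.

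Of 20 genes of the kinase cassette and its regulators other than Lats2 that passed the filter without serum, 1 was at least 2-fold higher and none was lower, and of 19 with serum none was called, where 14.7% of all loci without and 18.1% with serum were called in either direction. The exception, named after its values were seen, was the atypical cadherin Fat4, at 1.27 FPKM in TβRII-/- against 0.0887 FPKM in TβRIIfl/fl cells without serum. Wwc1 (KIBRA), a scaffold that activates the LATS kinases, was 189 FPKM in TβRII-/- against 376 FPKM in TβRIIfl/fl cells without serum and 152 FPKM in TβRII-/- against 300.3 FPKM in TβRIIfl/fl cells with serum, with log2 ratios of −0.99 and −0.98. Stk4 (MST1), the kinase above LATS, was 33.8 FPKM in TβRII-/- against 17.9 FPKM in TβRIIfl/fl cells without serum and 30.6 FPKM in TβRII-/- against 17.9 FPKM in TβRIIfl/fl cells with serum, with log2 ratios of 0.88 and 0.74. Frmd6, a regulator at cell junctions, had log2 ratios of 0.75 and 0.73, and Wtip, an Ajuba-family adaptor that restrains LATS, had 0.73 and 0.36. The calls without serum depended on the setting. Wwc1 passed 2-fold after median centering (−1.02), and Stk4 passed it after rescaling to equal sums (1.02), where the median of all loci was 0.15.

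A published cancer signature of 22 target genes holds 6 of the 10 genes described here. Of its other 16 genes, 14 passed the filter in each medium. Of these, 1 was at least 2-fold higher and 2 were lower in TβRII-/- cells without serum, with a median log2 ratio of 0.00063, and 2 were higher and 4 lower with serum, with a median of −0.48. The shares of all loci called in either direction were 14.7% without and 18.1% with serum. Dock5, an exchange factor for Rac, was 14.1 FPKM in TβRII-/- against 4.44 FPKM in TβRIIfl/fl cells without serum and 15.2 FPKM in TβRII-/- against 5.14 FPKM in TβRIIfl/fl cells with serum, with log2 ratios of 1.48 and 1.40. Fjx1, a secreted relative of the Fat pathway kinase four-jointed, was 0.301 FPKM in TβRII-/- against 8.99 FPKM in TβRIIfl/fl cells without serum and 0.458 FPKM in TβRII-/- against 8.75 FPKM in TβRIIfl/fl cells with serum, with log2 ratios of −2.94 and −2.74. The kinase gene Nuak2 had log2 ratios of −1.18 and −1.28, and the matrix gene Ccdc80 had −0.75 and −2.55. The other called genes with serum, named after their values were seen, were F3 (tissue factor), with a log2 ratio of 1.01, and Nt5e (CD73), with −1.47.

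**Figure D5:**
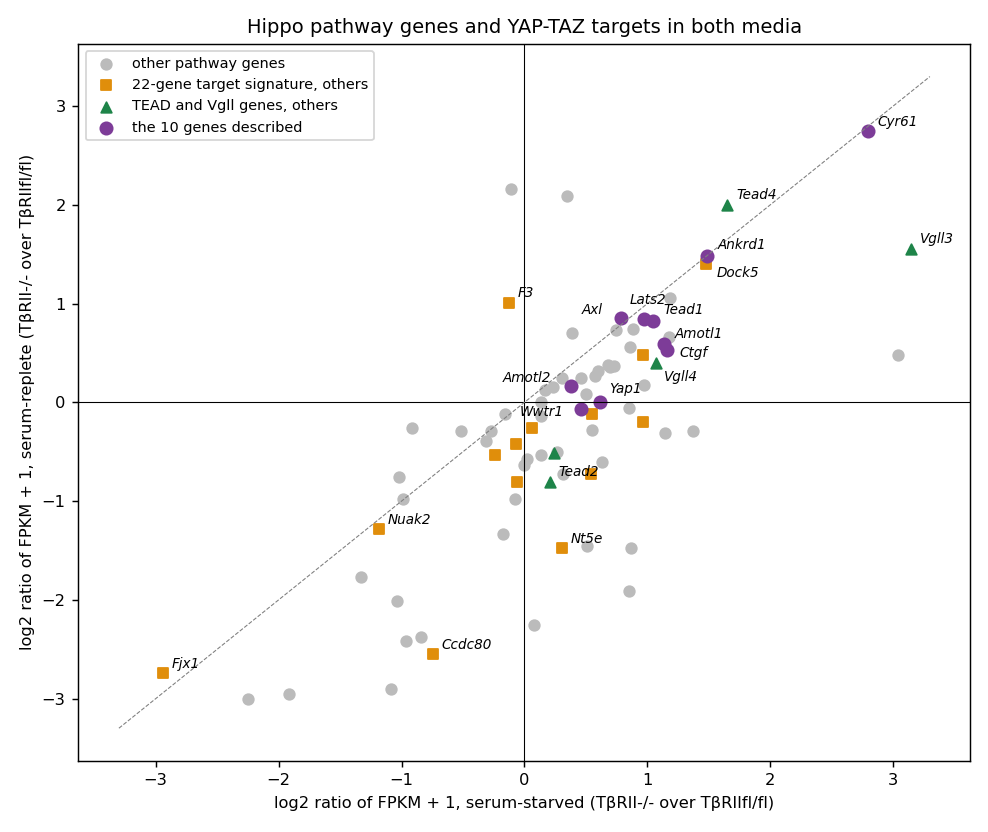
Log2 ratio of FPKM + 1 in TβRII-/- over TβRIIfl/fl cells in serum-starved (x axis) and serum-replete medium (y axis) for the pathway genes that passed the filter in both media, 1 point per gene, with the dashed line marking equal ratios. Cyr61 lies at 2.80 and 2.75, Fjx1 from the same target signature lies at −2.94 and −2.74, and most of the 10 genes lie on or below the dashed line.

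Among 14 genes often cited as targets, 2 were at least 2-fold higher and 3 lower of the 12 that passed the filter without serum. Of 13 with serum, 3 were higher and 2 lower, and the shares of all loci are those given above. The lists overlap, since Tgfb2 is also in the cancer signature and Ajuba also among the kinase regulators. Ptpn14 is in both the signature and the kinase regulators. Ccnd1 (cyclin D1) had log2 ratios of 0.34 without and 2.09 with serum. Birc5 (survivin), which is also a gene of mitosis, had −0.11 and 2.16. Its serum-starved ratio was 0.025 after rescaling to equal sums, where the median of all loci was 0.15. Fstl1, a secreted glycoprotein, was 148 FPKM in TβRII-/- against 374 FPKM in TβRIIfl/fl cells without serum and 142 FPKM in TβRII-/- against 486 FPKM in TβRIIfl/fl cells with serum, with log2 ratios of −1.33 and −1.77. The collagen gene Col8a1 had log2 ratios of −1.04 and −2.01 at levels of at most 3.20 FPKM.

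Of the other CCN genes, Wisp1 and Wisp2 passed the filter, and Wisp2 was called lower in both media. Wisp1 was 38.5 FPKM in TβRII-/- against 40.7 FPKM in TβRIIfl/fl cells without serum. With serum it was 17.4 FPKM in TβRII-/- against 35.2 FPKM in TβRIIfl/fl cells. Its log2 ratios were −0.076 and −0.98. The serum-starved ratio turned to 0.061 after rescaling to equal sums, where the median of all loci was 0.15. Wisp2 was 0.358 FPKM in TβRII-/- against 1.88 FPKM in TβRIIfl/fl cells without serum and 0.873 FPKM in TβRII-/- against 13.0 FPKM in TβRIIfl/fl cells with serum, with log2 ratios of −1.08 and −2.90, and Nov and Wisp3, named after their values were seen, were under 1 FPKM throughout. Among 8 genes for CCN receptors, 1 was 2-fold or more higher in TβRII-/- cells without serum, beside 8.02% of all loci, and 4 were lower with serum, beside 11.1% of all loci. Itga6, a laminin-binding integrin subunit, had log2 ratios of 1.37 and −0.29, Itga5, a subunit of the fibronectin receptor, had 0.51 and −1.45, and Itgb3, a subunit of the vitronectin receptor, had −0.96 and −2.42. The endocytic receptor Lrp1 had −0.84 and −2.37, and Itgb5, named after its values were seen, had −0.18 and −1.33.

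Cyr61 and Ctgf are also known as targets of serum response factor (SRF) and its actin-regulated MRTF cofactors, so 10 MRTF-SRF genes were set beside them. Without serum 1 of 10 passed 2-fold upwards in TβRII-/- cells and 0 passed downwards, and with serum none was higher and 3 were lower, with median log2 ratios of 0.85 and −0.46, beside 8.02% of all loci higher without and 11.1% lower with serum. Acta2 (smooth muscle actin) was 296 FPKM in TβRII-/- against 163 FPKM in TβRIIfl/fl cells without serum and 387 FPKM in TβRII-/- against 1459 FPKM in TβRIIfl/fl cells with serum, with log2 ratios of 0.85 and −1.91. Tagln (SM22) had log2 ratios of 0.87 and −1.48, and Cnn1 (calponin) had 0.081 and −2.25. Myl9, a myosin light chain, was 129 FPKM in TβRII-/- against 14.8 FPKM in TβRIIfl/fl cells without serum and 138 FPKM in TβRII-/- against 98.6 FPKM in TβRIIfl/fl cells with serum, with log2 ratios of 3.04 and 0.48. Ratios were above 0 for 9 of the 10 genes without serum and for 3 of 10 with serum. The median over all loci was 0.028 without and −0.029 with serum. The share of all loci above 0 was not computed, so nothing is read from this count. The part of the MRTF-SRF differences in the Cyr61 and Ctgf results was not tested.

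The difference between media was read within each genotype, as the log2 ratio of serum-starved to serum-replete cells. Because the tables were scaled separately, these values are given beside the median over all loci, 0.13 in TβRII-/- and 0.021 in TβRIIfl/fl cells, and no call was made. Cyr61 was lower after serum starvation by nearly the same amount in both genotypes, −0.76 in TβRII-/- and −0.81 in TβRIIfl/fl cells. Ankrd1 was at −0.77 in both genotypes, and Axl was at −1.00 in TβRII-/- and −0.94 in TβRIIfl/fl cells. These 3 genes had the lowest values of the 10 in both genotypes.

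Ctgf, Amotl1 and Yap1 were above 0 in TβRII-/- and below 0 in TβRIIfl/fl cells, where the place of 0 depends on the separate scaling. They were also above the median of all loci in TβRII-/- cells (0.13) and below it in TβRIIfl/fl cells (0.021). Ctgf was at 0.28 in TβRII-/- and −0.35 in TβRIIfl/fl cells, Amotl1 at 0.22 in TβRII-/- and −0.32 in TβRIIfl/fl cells, and Yap1 at 0.25 in TβRII-/- and −0.37 in TβRIIfl/fl cells. Amotl2 was at 0.075, under the median of all loci, in TβRII-/- and −0.14 in TβRIIfl/fl cells, and Lats2 with Xpo4 and Tead1 were near 0 in TβRII-/- cells. Wwtr1 was higher after serum starvation in both, at 0.79 in TβRII-/- and 0.27 in TβRIIfl/fl cells. Below 0 were 5 of the 10 genes in TβRII-/- cells, beside 39.9% of all loci, and 9 of the 10 in TβRIIfl/fl cells, beside 47.3% of all loci. Below the median of all loci were 6 in TβRII-/- and 9 in TβRIIfl/fl cells. Differences of this size could not be set against any spread between libraries of a condition.

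The genes with patterns most like Cyr61 and Ctgf were found by the Euclidean distance of log2(FPKM + 1) over the 4 libraries, each locus centered on its own mean, among 10307 single-gene loci that reached 5 FPKM in any library. The nearest to Cyr61 was the keratin gene Krt7, also in the collecting duct marker list, at a distance of 0.23, with 362 FPKM in TβRII-/- against 53.9 FPKM in TβRIIfl/fl cells without serum and 525 FPKM in TβRII-/- against 91.5 FPKM in TβRIIfl/fl cells with serum. It was followed by Flnc (filamin C, 0.35), Procr (a receptor for protein C, 0.38), Gcnt1 (an enzyme that branches O-glycans, 0.43) and Cav1 (caveolin-1, 0.50). The nearest to Ctgf was Amotl1, one of the 10, at 0.052, followed by Slamf9 (0.066), Rnd3 (0.079), Gm14005 (0.092) and Gnb1 (a G protein subunit, 0.096). The distance between Cyr61 and Ctgf was 2.09, and Ctgf ranked at place 600 in likeness to Cyr61. These distances rest on 4 libraries scaled in 2 runs and carry no test.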

How the data were processed

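RNA-Seq of 4 IMCD libraries was analysed, 1 per condition, grouped by the sample labels. The labels state reads of 50 bp and 30 M reads for each library. The authors aligned reads and deposited FPKM per gene locus, with TopHat2 and then Cufflinks and Cuffdiff on mm10 according to the submitters' processing notes. For tool versions and annotation, the release is not given in the sources used here. Deposited columns with the authors' fold changes and p-values, and their lists of top hits, were not used.

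From the FPKM, log2 ratios with a pseudocount of 1 were computed within a medium for loci that reached 1 FPKM in any of its libraries, and were called at 2-fold. No test between groups was run. The calculation of ratios and calls was checked on simulated data with planted changes. The 10 genes, 9 pathway lists and 5 marker lists were chosen with earlier results of these data known. The genes named are the 10, Tgfbr2, up to 4 others per pathway list with the largest mean ratio size over both media, and the 5 nearest in pattern to Cyr61 and to Ctgf. Markers, overlapping genes and a few other list genes are named in addition, after their values were seen. Gene coordinates and overlaps are from GENCODE vM21 (GRCm38, the assembly of mm10), and promoters are from RefSeq GRCm38.p6. Pseudocounts of 0.1 and 0.5, a minimum of 5 FPKM or none, median centering and rescaling to equal sums without the highest locus were tried. Python 3.11.15, pandas 2.3.3 and numpy 2.4.6 were used.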

Additional observations from a re-analysis of the deposited data

Results flagged for a closer look

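With 1 library per condition, the log2 ratio of TβRII-/- to TβRIIfl/fl cells was compared between media for the 81 pathway genes that passed the filter in both, the 10 YAP-TEAD genes included. In 14 of them it had opposite signs in the 2 media and differed by at least 1, and these differences were not tested. The share of all loci with such a difference was not computed, so nothing is read from this count. The ratio in serum-starved minus that in serum-replete medium was 2.77 for Acta2, 2.34 for Tagln, 2.33 for Cnn1 and 1.04 for Vcl, which are MRTF-SRF genes, and 1.96 for Itga5 and 1.66 for Itga6, which encode integrin subunits. Among target genes it was 1.78 for Nt5e, 1.45 for Birc3, 1.27 for Tgfb2, 1.23 for Edn1, 1.16 for Rbms3, −1.13 for F3 and −2.27 for Birc5, and it was 1.01 for Tead2. Median centering brought Tead2 to 0.95 and Vcl to 0.98, and rescaling to equal sums brought Tead2 to 0.98, each under 1. After rescaling, the serum-starved ratio was 0.025 for Birc5 and 0.012 for F3, so the signs were no longer opposite. Both values were under the median of all loci after rescaling, 0.15, and with median centering the signs of both genes stayed opposite. None of the 10 YAP-TEAD genes was among the 14, and the largest difference among the 10 was 0.63 for Ctgf. Vcl, Nt5e, Birc3, Tgfb2, Edn1, Rbms3 and F3 were named after their values were seen.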

How the results depend on the processing

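No paired analysis was possible because each condition is 1 library, so no groups share 2 replicate numbers, and no replicate could be left out. The 10 genes kept their call in 117 of 120 values under the 6 alternatives, and the other 3 passed 2-fold in addition, all when each library was rescaled to an equal sum without its highest locus, mt-Ts1. These were Lats2 in both media (1.11 and 1.02) and Axl with serum (1.02), so that 4 of the 10 genes were then at least 2-fold higher with serum instead of 2. That rescaling moved the median log2 ratio of all loci to 0.15 without and 0.12 with serum, against 0.028 and −0.029, and relative to these medians the 3 ratios were under 1 again. With a filter of 5 FPKM, 561 loci were at least 2-fold lower in serum-starved TβRII-/- cells, against 842. Of 355 values for the other pathway genes named, 348 kept their call and 7 passed 2-fold in addition, and no called ratio changed sign. Among the ratios of the 10 genes and of these named genes, rescaling turned the sign of 3 that were under 2-fold. They became 0.10 for Wwtr1 with serum and 0.061 for Wisp1 and 0.025 for Birc5 without serum. These 3 values were under the medians of all loci after rescaling, and median centering turned none of the 3 signs. The tables hold no counts, so counting error could not be given. It could not be given for values under 1 FPKM either, which rest on fewer reads than higher values of the same gene in a library of the same depth.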
